A study of Mus musculus with 24 samples.

Results

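The p53 target genes described here are Mdm2, Ccng1, Trp53inp1, Sesn1, Sesn2, Bbc3, Bax, Phlda3, Zmat3 and Perp, 10 genes named for their known activation by the transcription factor p53. All probes whose platform gene symbol was 1 of these names were taken, which gave 21 of the 45281 probes on the array. They read 9 of the 10 genes, and Bax is not analysed here. Of the 21 probes, 18 passed the detection filter (a detection p under 0.05 on at least 4 arrays), and the other 3 were 1 probe of Sesn1 and 2 of Sesn2. Each of the 9 genes kept at least 1 probe, so 9 of the 10765 genes tested are p53 targets. Where a gene had several probes, its brightest stands for it in every count. Its other probes come from the same model over all 19631 probes that passed the filter, with p adjusted over those, and are given where they bear on a call.

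Liver RNA of male C57BL/6J mice, 12 weeks old by the labels, was hybridised to 24 Illumina arrays. Mice with diet-induced obesity and lean controls, both from Jackson Laboratories, had sham surgery, 70% hepatectomy or 80% hepatectomy, and livers were taken 6 h later. Sham surgery was an incision with handling of the liver, so the sham groups carry the anesthesia and the wound but no loss of liver mass. The 6 groups (lean sham, lean 70%, lean 80%, obese sham, obese 70%, obese 80%) held 4 arrays each. The comparisons ask what diet and resection size change in the liver's early response. A value below is the log2 of the background-corrected, quantile-normalized intensity of a probe. A change is a difference of group means on that scale, with its standard error (SE) from 1 limma model over all arrays. A gene rose, fell or changed where its Benjamini-Hochberg adjusted p over all genes was under 0.05.

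The arrays detected 15316 to 17463 probes each, and correlations between arrays of a group were at least 0.9773 across genes. Of 10 hepatocyte markers, 9 were measured and read on every array. The arrays lay on 4 slides. Slides 1 and 2 share the obese sham group and slides 3 and 4 share the lean 80% group, with no group linking the pairs. Slide and surgery therefore cannot be told apart for lean 80%, obese 70% and obese 80% against sham. They are confounded in the same way in the diet comparison at 70%, in the lean comparison of resection sizes, and in the interactions of diet with 70% hepatectomy and with resection size.

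p53 is a transcription factor that is held at a low level by Mdm2, a ubiquitin ligase which marks it for destruction. DNA damage, loss of ribosome production and other stresses free p53 from Mdm2, and p53 then activates genes that halt the cell cycle, repair DNA, limit growth signals or start apoptosis. Mdm2 is itself a target, which closes a feedback loop. Many of these genes have other activators too, such as FOXO proteins and the stress factor ATF4. In the regenerating liver hepatocytes leave quiescence in the hours after resection, and p21, a p53 target that brakes the cell cycle, is known to be induced then.

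The 9 measured genes moved in both directions after every resection. Trp53inp1, a stress-induced partner of p53 that also acts in autophagy, rose in all 4 comparisons with sham, 3.85-fold and 4.42-fold in lean mice and 1.89-fold and 1.95-fold in obese mice after 70% and 80% hepatectomy. Bbc3, which encodes the pro-apoptotic protein PUMA, and Ccng1, the cyclin that recruits phosphatase 2A to Mdm2, fell in all 4, by their brightest probes. Sesn1, a stress-induced inhibitor of mTORC1, fell in 3 of the 4. Zmat3, an RNA-binding zinc finger protein, rose in 3, and Mdm2 rose in 2.

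After 70% hepatectomy in lean mice, 5 of the 9 genes rose and 2 fell, when 47.6% of all genes tested changed (21.4% rose, 26.2% fell). After 80% hepatectomy in lean mice, 4 rose and 3 fell, against 55% of all genes (23.9% rose, 31% fell). Both counts of rises in lean mice include Sesn2, which no sham array detected. Sesn2 passed the detection filter through hepatectomy arrays alone, so its place in the lean counts and shares given here is not independent of that filter. In obese mice 1 rose and 3 fell after 70% hepatectomy, when 46.8% of all genes changed (22.2% rose, 24.6% fell). After 80% hepatectomy in obese mice 3 rose and 3 fell, against 52.8% of all genes (24.1% rose, 28.7% fell). In percent of the 9 genes, 77.8% changed after either resection in lean mice, and 44.4% and 66.7% after 70% and 80% hepatectomy in obese mice. With 9 genes, 1 gene more or less moves such a share by more than 10 percentage points. The median change of the 9 genes was 0.34 and 0.31 on the log2 scale in lean mice after 70% and 80% hepatectomy, and 0.12 after either resection in obese mice. The gene in the middle was Sesn2 in lean 70%, Perp in lean 80% and obese 80%, and Phlda3 in obese 70%. Each of these was read close to background, so the medians do not describe a shift of the whole set. Over all genes the medians lay between -0.06 and -0.02. The groups did not overlap for 5 and 7 of the 9 genes in lean mice (40.7% and 44.7% of all genes) and for 4 and 5 in obese mice (46.1% and 51.4%).

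**Figure D1:**
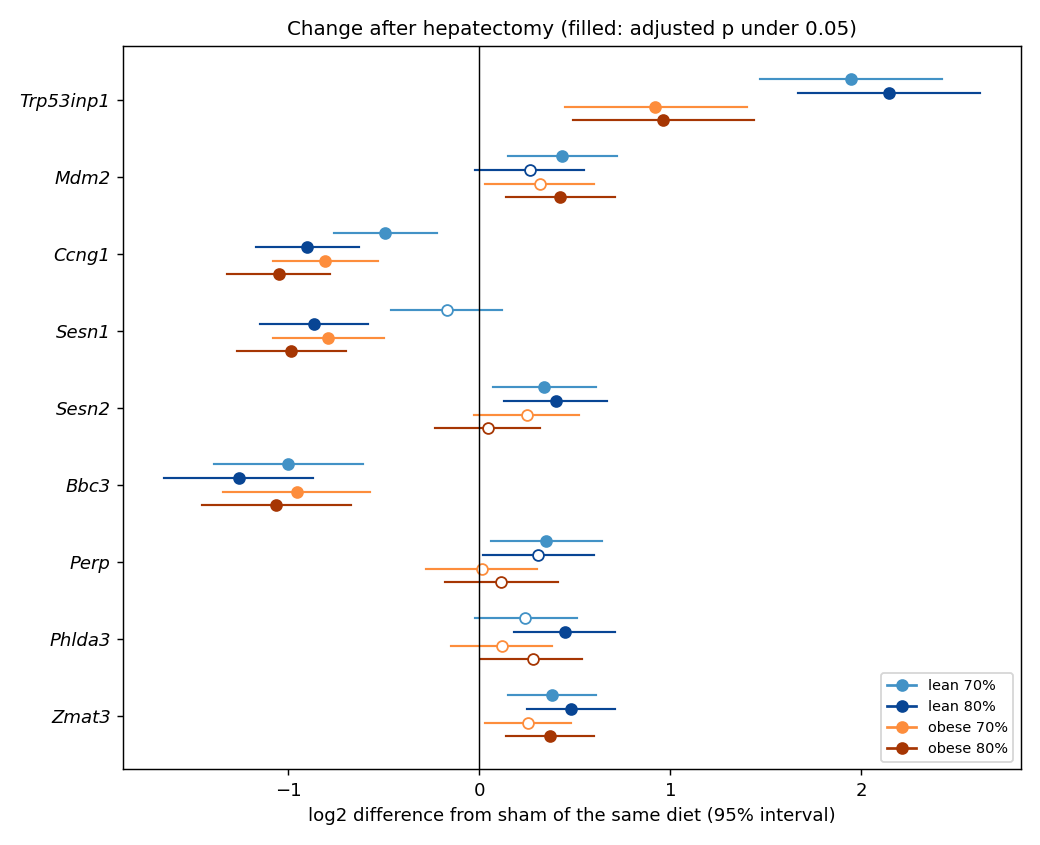
Change of each p53 target gene after 70% or 80% hepatectomy, as the log2 difference from the sham group of the same diet with its 95% interval from the limma fit. Each row is a gene and each colour a comparison of 4 arrays with 4. Filled points have an adjusted p under 0.05. Trp53inp1 lies farthest to the right, with both lean values near 2 and both obese values near 1, while Bbc3, Ccng1 and Sesn1 lie to the left of 0.

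Upstream sequence is shown for Mdm2, Ccng1 and Sesn1, since they carry a match to the 10-base half-site of the p53 consensus yet differed in direction after resection. RefSeq windows of 300 bases, from 250 bases before a transcript start to 50 bases from it, were at hand for 7 of the 10 genes (10 windows, build GRCm38.p6). The half-site, which reads alike on both strands, was found in 4 of the 10 windows and in 8.36% of all 32851 windows. A pair of half-sites no more than 13 bases apart, the form that p53 binds, was found in 0 of the 10 windows and in 0.0731% of all. A match of letters is no evidence of binding, and the known p53 elements of Mdm2 lie in an intron outside this window. The windows are printed on the strand of the gene, with the half-site in capitals. The Mdm2 window is chr10:117710709-117711008 on the minus strand, with the match 186 bases before the start. The Ccng1 window is chr11:40755237-40755536 on the minus strand, with the match 185 bases before the start. The Sesn1 window is that of the downstream of its starts, chr10:41887189-41887488 on the plus strand, with the match 173 bases before the start.
Mdm2: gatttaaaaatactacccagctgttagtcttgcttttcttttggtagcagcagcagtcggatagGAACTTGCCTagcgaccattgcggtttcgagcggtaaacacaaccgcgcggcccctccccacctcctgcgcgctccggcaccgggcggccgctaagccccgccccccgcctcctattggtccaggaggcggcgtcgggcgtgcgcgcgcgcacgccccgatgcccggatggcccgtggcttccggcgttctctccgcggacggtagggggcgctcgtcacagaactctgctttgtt
Ccng1: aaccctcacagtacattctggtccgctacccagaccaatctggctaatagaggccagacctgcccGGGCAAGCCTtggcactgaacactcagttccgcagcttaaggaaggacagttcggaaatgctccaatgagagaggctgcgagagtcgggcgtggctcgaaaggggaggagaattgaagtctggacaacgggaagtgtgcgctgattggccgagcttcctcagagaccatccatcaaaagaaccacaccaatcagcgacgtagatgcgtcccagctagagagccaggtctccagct
Sesn1: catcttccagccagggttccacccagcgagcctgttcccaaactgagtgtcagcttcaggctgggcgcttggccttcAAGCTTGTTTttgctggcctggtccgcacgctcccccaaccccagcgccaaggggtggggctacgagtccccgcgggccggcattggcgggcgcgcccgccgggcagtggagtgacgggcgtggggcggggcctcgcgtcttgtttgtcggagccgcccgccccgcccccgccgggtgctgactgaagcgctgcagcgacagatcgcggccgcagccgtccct

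Trp53inp1 read 8.41, 8.21, 8.34 and 8.29 in lean sham, 10.12, 10.43, 9.99 and 10.50 in lean 70%, and 11.26, 10.63, 9.49 and 10.46 in lean 80%. It read 9.22, 9.16, 9.10 and 9.02 in obese sham, 10.02, 9.57, 10.28 and 10.32 in obese 70%, and 9.86, 10.22, 9.98 and 10.30 in obese 80%. Every array of a hepatectomy group lay above every sham array of its diet, and the sham groups did not overlap with each other. The lean 80% group was the most spread, from 9.49 to 11.26, with its lower pair of arrays on the slide shared with obese 80%. The change was 1.95 in lean 70% (SE 0.23, adjusted p = 2.2e-07) and 2.15 in lean 80% (SE 0.23, adjusted p = 3.5e-08). In obese mice it was 0.92 after 70% (SE 0.23, adjusted p = 0.002) and 0.96 after 80% hepatectomy (SE 0.23, adjusted p = 0.0011). The gene's other probe, detected on all 24 arrays as well, rose by 2.37, 2.36, 0.77 and 1.11 in the same order, each with an adjusted p under 0.05. In both diets the 4 calls held under all of the alternative settings that could be run and with any single array left out. Among those settings, a fixed slide term could be run for lean 70% alone.

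Mdm2 read 8.41, 8.47, 8.60 and 8.65 in lean sham, 8.92, 9.11, 8.89 and 8.95 in lean 70%, and 9.08, 8.85, 8.53 and 8.75 in lean 80%. In obese mice it read 8.68, 8.41, 8.70 and 8.51 after sham surgery, 9.01, 8.52, 8.86 and 9.17 after 70%, and 9.08, 8.65, 8.97 and 9.28 after 80% hepatectomy. Only the lean 70% arrays all lay above the sham arrays of their diet. Mdm2 rose 1.35-fold in lean 70% (log2 0.43, SE 0.139, adjusted p = 0.012) and 1.34-fold in obese 80% (log2 0.42, SE 0.139, adjusted p = 0.013). In lean 80% the difference was 0.27 (SE 0.139, adjusted p = 0.11), and in obese 70% it was 0.32 (SE 0.139, adjusted p = 0.064). The obese 80% call was lost without array 4 of that group (adjusted p = 0.064). A further probe, detected on 24 arrays, rose in lean 70% (0.52), obese 70% (0.61) and obese 80% (0.63). The remaining Mdm2 probe was detected on 4 of the 24 arrays and read lower than sham in lean 80%, obese 70% and obese 80% (-0.35, -0.28 and -0.27), at background level.

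Ccng1 read 7.89, 7.78, 7.74 and 8.01 in lean sham, 7.67, 7.32, 7.18 and 7.30 in lean 70%, and 6.69, 6.88, 7.15 and 7.10 in lean 80%. In obese mice it read 8.59, 8.38, 8.52 and 8.22 after sham surgery, 7.78, 7.82, 7.67 and 7.21 after 70%, and 7.30, 7.41, 7.39 and 7.42 after 80% hepatectomy. No hepatectomy array overlapped the sham group of its diet. The fall was 1.41-fold in lean 70% (log2 -0.49, SE 0.132, adjusted p = 0.0034), 1.87-fold in lean 80% (log2 -0.90, SE 0.132, adjusted p = 3.5e-06), 1.75-fold in obese 70% (log2 -0.80, SE 0.132, adjusted p = 2.4e-05) and 2.07-fold in obese 80% (log2 -1.05, SE 0.132, adjusted p = 4.5e-07). The other Ccng1 probes, both detected on all 24 arrays, gave smaller values. The first of them fell after 80% hepatectomy in lean (-0.35, SE 0.091, adjusted p = 0.0021) and obese mice (-0.34, SE 0.091, adjusted p = 0.0032) but did not pass after 70%, with -0.18 (adjusted p = 0.11) in lean and -0.10 (adjusted p = 0.41) in obese mice. The second passed in none of the 4 comparisons, with values of -0.04, -0.21, -0.07 and -0.22. The 3 probes thus differ in size, and the larger fall was read by the brightest alone.

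Sesn1 and Sesn2 encode sestrins, which restrain mTORC1 and lower oxidative stress. Sesn1 read 8.52, 8.25, 8.06 and 8.0 in lean sham, 8.31, 7.89, 8.18 and 7.76 in lean 70%, and 7.50, 7.30, 7.26 and 7.31 in lean 80%. In obese mice it read 8.25, 8.19, 8.09 and 8.17 after sham surgery, 7.25, 7.24, 7.61 and 7.44 after 70%, and 7.51, 7.17, 7.23 and 6.85 after 80% hepatectomy. Lean 70% overlapped lean sham, while the other 3 hepatectomy groups lay wholly below their sham group. Sesn1 fell 1.82-fold in lean 80% (log2 -0.86, SE 0.138, adjusted p = 1.2e-05), 1.73-fold in obese 70% (log2 -0.79, SE 0.138, adjusted p = 5.4e-05) and 1.98-fold in obese 80% (log2 -0.99, SE 0.138, adjusted p = 2.1e-06). In lean 70% the difference was -0.17 (SE 0.138, adjusted p = 0.33). Its other passing probe, however, fell in all 4 comparisons, by 0.49 in lean 70% (SE 0.173, adjusted p = 0.024), 0.87 in lean 80%, 0.42 in obese 70% (adjusted p = 0.049) and 0.76 in obese 80%. Both probes fell after 80% hepatectomy in both diets and in obese 70%, and only 1 of them did in lean 70%.

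Sesn2 lay close to background. Its only passing probe was detected on 5 of the 24 arrays, none of them in either sham group or in obese 80%, 1 in lean 70% and 2 each in lean 80% and obese 70%. The values ran from 4.35 to 5.19 over all arrays, around the detection floor of 4.73 to 4.92. It passed the test as higher in lean 70% (0.34, SE 0.132, adjusted p = 0.037) and lean 80% (0.40, SE 0.132, adjusted p = 0.013), and no fold is given since the sham level is only bounded. The lean 70% call was lost without any 1 of the lean sham arrays or of lean 70% arrays 2, 3 and 4 (adjusted p up to 0.18), and the lean 80% call was lost without array 4 of lean 80% (adjusted p = 0.077).

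Bbc3 read 7.54, 7.75, 7.71 and 7.18 in lean sham, 6.71, 6.12, 6.79 and 6.57 in lean 70%, and 6.71, 6.02, 6.20 and 6.21 in lean 80%. In obese mice it read 7.35, 7.37, 6.97 and 6.88 after sham surgery, 6.25, 5.69, 6.39 and 6.42 after 70%, and 6.26, 6.25, 6.10 and 5.70 after 80% hepatectomy. The hepatectomy groups lay wholly below sham in both diets. The fall was 2.0-fold in lean 70% (log2 -1.0, SE 0.188, adjusted p = 1e-04), 2.40-fold in lean 80% (log2 -1.26, SE 0.188, adjusted p = 4.5e-06), 1.94-fold in obese 70% (log2 -0.96, SE 0.188, adjusted p = 2e-04) and 2.09-fold in obese 80% (log2 -1.06, SE 0.188, adjusted p = 4.4e-05). Bbc3 has 2 dimmer probes, detected on 13 and 12 arrays, and neither passed in any of these comparisons, with values between -0.18 and 0.15. The fall of this apoptosis gene was therefore read by 1 of its 3 probes, the only one detected throughout.

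**Figure D2:**
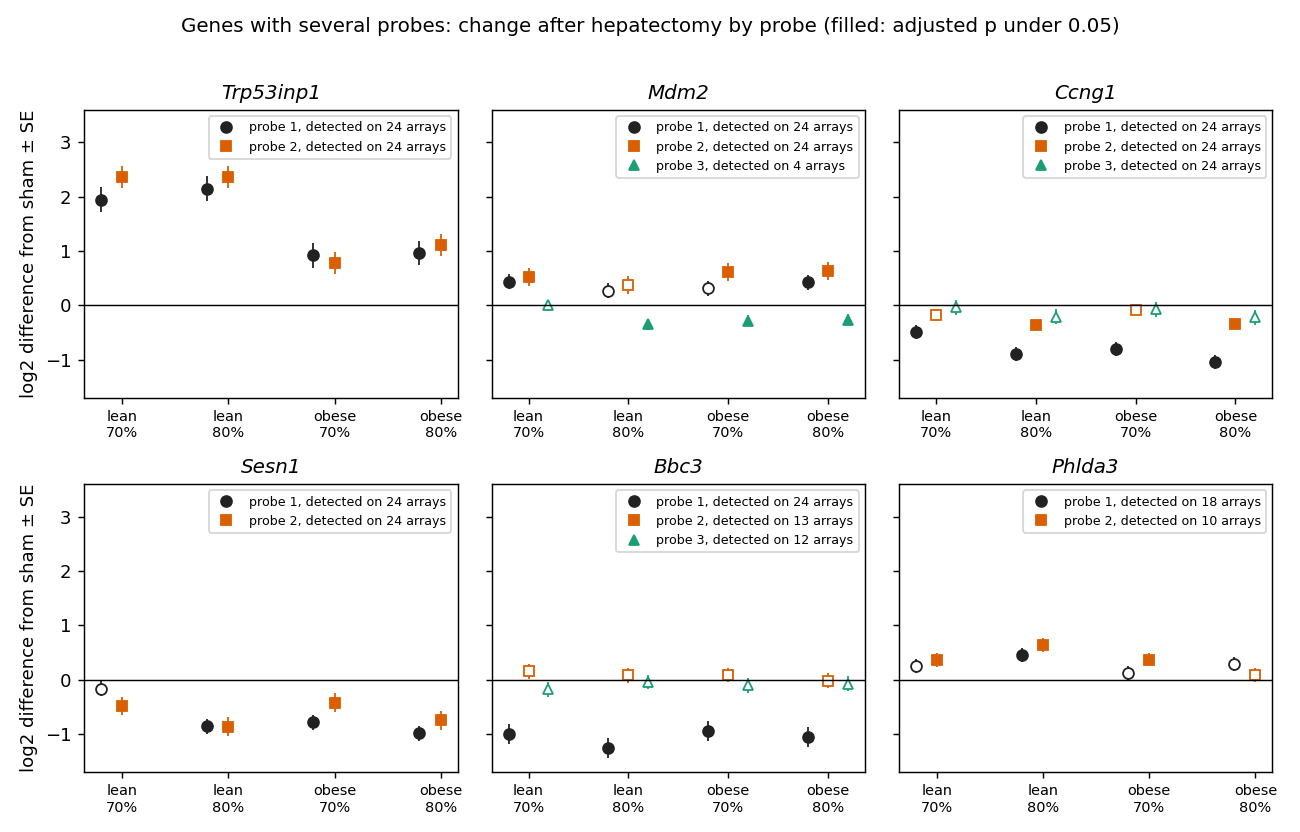
Change after hepatectomy for every passing probe of the genes that have more than 1, as the log2 difference from the sham group of the same diet with its SE. Colours and shapes separate the probes, the legend gives the number of arrays that detected each, and filled symbols have an adjusted p under 0.05. Both Trp53inp1 probes lie above 0 in all 4 comparisons, while for Bbc3 and Ccng1 the brightest probe lies well below the others.

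Perp, a membrane protein of desmosomes with a part in p53-dependent apoptosis, was read by 1 probe on 22 arrays. It ranged from 4.60 to 5.04 in lean sham, where 2 arrays detected it, from 4.94 to 5.42 in lean 70% and from 4.92 to 5.24 in lean 80%. The obese range was 5.01 to 5.42 after sham surgery, 4.98 to 5.38 after 70% and 5.20 to 5.64 after 80% hepatectomy. Only the lean 70% change passed (0.35, SE 0.141, adjusted p = 0.045), with groups that overlap, and the call was lost without lean sham array 2 or 4 or lean 70% array 1 or 2 (adjusted p up to 0.15). It was lost as well under 9 of the 15 alternative settings, among them no background correction, array weights and the authors' log2 values, with differences of 0.02 to 0.39 over the 15. In lean 80% the difference was 0.31 (SE 0.141, adjusted p = 0.067).

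Phlda3, a pleckstrin homology protein that restrains AKT by competing for membrane lipid, was detected on 1 of 4 lean sham, 2 of 4 lean 70% and all 4 lean 80% arrays. It ranged from 4.48 to 4.93 in lean sham and from 4.95 to 5.38 in lean 80%, with no overlap. The rise passed in lean 80% only (0.45, SE 0.129, adjusted p = 0.0052). In the other 3 comparisons the differences were 0.24 in lean 70% (adjusted p = 0.13), 0.12 in obese 70% (adjusted p = 0.48) and 0.28 in obese 80% (adjusted p = 0.072). A second, dimmer Phlda3 probe was detected on 0 lean sham and 0 obese sham arrays, so it passed the detection filter through hepatectomy arrays alone. Its higher values after hepatectomy are therefore not independent of that filter. Its group means ran from 4.40 to 5.04, around the detection floor of 4.73 to 4.92. This probe was detected on 4 of 4 lean 80% arrays, and read higher there by 0.64 (SE 0.127, adjusted p = 0.00016). It also passed in lean 70% (0.37) and obese 70% (0.37), both with an adjusted p of 0.021, but not in obese 80% (0.08, adjusted p = 0.61).

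Zmat3 was read by 1 probe, detected on all 24 arrays. It read 6.26, 6.03, 6.16 and 6.22 in lean sham, 6.80, 6.44, 6.54 and 6.43 in lean 70%, and 6.52, 6.64, 6.74 and 6.70 in lean 80%. After the same surgeries in obese mice it read 6.43, 6.59, 6.71 and 6.70 after sham surgery, 6.65, 6.80, 6.93 and 7.07 after 70%, and 6.89, 6.84, 6.92 and 7.26 after 80% hepatectomy. Both lean hepatectomy groups lay wholly above lean sham, as obese 80% lay above obese sham. Zmat3 rose 1.30-fold in lean 70% (log2 0.38, SE 0.111, adjusted p = 0.0062), 1.40-fold in lean 80% (log2 0.48, SE 0.111, adjusted p = 0.00076) and 1.29-fold in obese 80% (log2 0.37, SE 0.111, adjusted p = 0.0073). In obese 70% the difference was 0.26 (SE 0.111, adjusted p = 0.063).

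**Figure D3:**
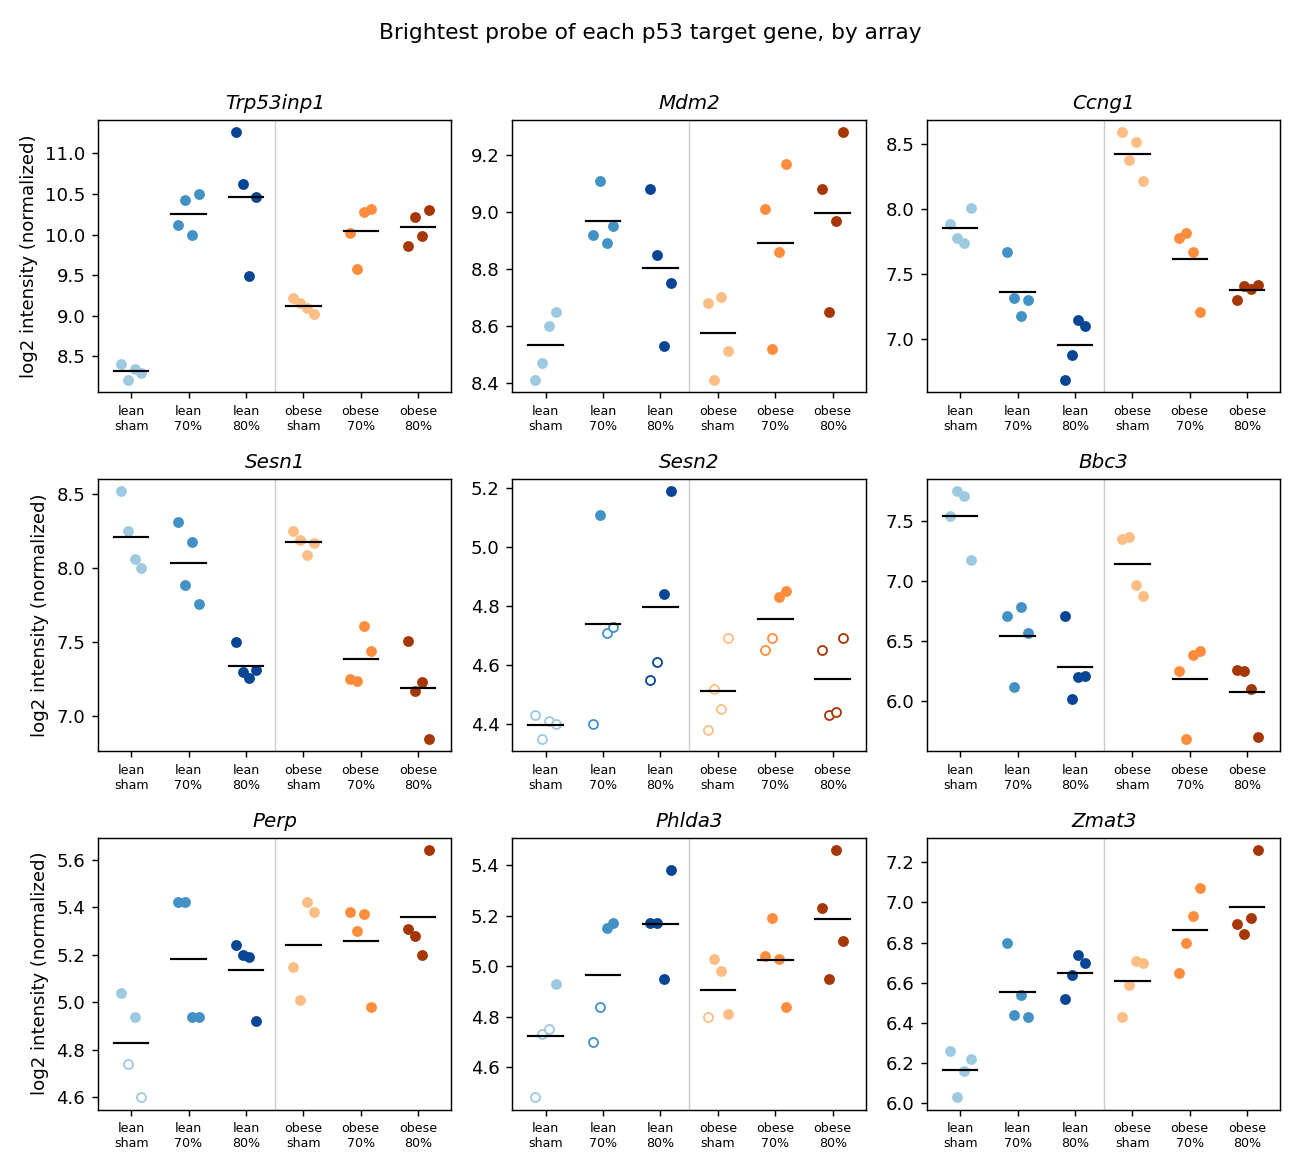
Normalized log2 intensity of the brightest probe of each p53 target gene on each of the 24 arrays, with the mean of each group as a bar. Each panel is a gene with its own vertical scale, blue points are lean and orange points obese mice, and open points were not detected. Trp53inp1 is above its sham group on all hepatectomy arrays of both diets, Bbc3 and Ccng1 are below it, and most Sesn2 points are open.

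Of the comparisons with sham, lean 70% is the one in which a slide term could be fitted. With slide as a fixed term 1 of the 9 genes passed there, Trp53inp1. That term also lowers precision, with an SE for Bbc3 of 0.316 where it was 0.188 without the term. The share of all genes that passed in that fit is not given here, so the count is not read as particular to these genes. Bbc3 was then at -0.57 (SE 0.316, adjusted p = 0.22), Ccng1 at -0.38 (adjusted p = 0.23), Mdm2 at 0.38 (adjusted p = 0.27) and Zmat3 at 0.19 (adjusted p = 0.53). With slide as a random block (consensus correlation 0.128), Bbc3, Ccng1, Mdm2 and Zmat3 kept their lean 70% calls while Perp and Sesn2 lost theirs.

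Diet was compared within each surgery. After sham surgery 3 of the 9 genes were higher in obese than in lean liver and 0 lower, when 12.2% of all genes tested differed (6.1% higher, 6.09% lower). Trp53inp1 was 1.76-fold higher (log2 0.81, SE 0.23, adjusted p = 0.021), Ccng1 1.48-fold (log2 0.57, SE 0.132, adjusted p = 0.0051) and Zmat3 1.36-fold (log2 0.44, SE 0.111, adjusted p = 0.0098). For these 3 genes the obese and lean sham arrays did not overlap, as for 20% of all genes. The second probe of Trp53inp1 was higher by 1.06 (SE 0.203, adjusted p = 0.00096) and that of Ccng1 by 0.29 (SE 0.091, adjusted p = 0.041). The third Ccng1 probe did not pass (0.33, SE 0.14, adjusted p = 0.14). On slide 1, which held 4 lean and 2 obese sham arrays, the differences were 0.88 for Trp53inp1, 0.63 for Ccng1 and 0.34 for Zmat3. The Zmat3 call was lost with slide as a fixed term (0.34, adjusted p = 0.16), and that of Trp53inp1 without lean sham array 2 (adjusted p = 0.057). Bbc3 (-0.40, adjusted p = 0.18), Perp (0.41, adjusted p = 0.058), Mdm2 (0.04, adjusted p = 0.91) and Sesn1 (-0.03, adjusted p = 0.93) did not pass.

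After 70% hepatectomy Zmat3 was higher in obese liver (0.31, SE 0.111, adjusted p = 0.036) and Sesn1 lower (-0.65, SE 0.138, adjusted p = 0.0011), 2 of the 9 genes against 30.6% of all (16.9% higher, 13.7% lower). The Sesn1 arrays of both diets did not overlap at 70%, as for 26.8% of all genes. Its other probe, however, gave -0.08 (SE 0.173, adjusted p = 0.74), so the Sesn1 difference was read by 1 of 2 probes. Ccng1 did not pass by its brightest probe (0.26, adjusted p = 0.15), while its second probe was higher in obese liver (0.38, SE 0.091, adjusted p = 0.0029) and the remaining probe did not pass (0.30, adjusted p = 0.11). In that comparison 6 of the 8 measured Kupffer cell and macrophage markers were lower in obese liver, with a mean level per array of 7.66 to 9.11 in lean 70% and 7.53 to 7.94 in obese 70%, and the part of these cells in the Sesn1 value was not tested. After 80% hepatectomy Ccng1 (0.42, SE 0.132, adjusted p = 0.023) and Zmat3 (0.33, SE 0.111, adjusted p = 0.036) were higher in obese liver, 2 of the 9 genes against 22.9% of all (13.5% higher, 9.46% lower), with no overlap between the diets for either gene (20.9% of all genes). The second Ccng1 probe passed too (0.30, SE 0.091, adjusted p = 0.02), and the third did not (0.33, SE 0.14, adjusted p = 0.11). On slide 4, with 2 lean and 4 obese 80% arrays, these differences were 0.25 and 0.26, and neither passed with slide as a fixed term (adjusted p = 0.31 and 0.22). Zmat3 was thus higher in obese liver at each surgery, but single arrays decided the later calls. Its call at 70% was lost without lean 70% array 2, 3 or 4 or obese 70% array 3 or 4 (adjusted p up to 0.12). The Ccng1 and Zmat3 calls at 80% were lost without lean 80% array 1 or 2 or obese 80% array 3 or 4 (adjusted p up to 0.095 and 0.16).

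The size of the resection was compared within each diet. In lean mice Sesn1 (-0.70, SE 0.138, adjusted p = 0.0016) and Ccng1 (-0.41, SE 0.132, adjusted p = 0.035) were lower after 80% than after 70% hepatectomy, 2 of the 9 genes against 16.6% of all (7.02% higher, 9.6% lower), and neither gene's groups overlapped (12.6% of all genes). Both calls rest on the brightest probe. The other Sesn1 probe gave -0.38 (adjusted p = 0.13), and the other Ccng1 probes -0.17 (adjusted p = 0.2) and -0.18 (adjusted p = 0.41). The dimmest Mdm2 probe, at background level, was lower after 80% (-0.36, adjusted p = 0.018). The Ccng1 call was lost without array 1 or 2 of either group (adjusted p up to 0.14). The 8 measured Kupffer cell and macrophage markers were lower in lean 80% as well, at 7.63 to 7.97 per array, and their part in these values was not tested. In obese mice 0 of the 9 genes passed by limma between 80% and 70%, and 0 had an unadjusted p under 0.05, while 7.86% of all genes passed.

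The interaction asks whether the change from sham differed between the diets. For 70% hepatectomy, 2 of the 9 genes passed (18.1% of all genes), both with a negative sign (8.31% of all genes). A negative sign means a smaller rise or a deeper fall in obese mice. Trp53inp1 rose by 1.02 less on the log2 scale in obese mice, an interaction of -1.02 (SE 0.325, adjusted p = 0.031). Sesn1 fell further in obese mice (-0.79) than in lean mice (-0.17), an interaction of -0.62 (SE 0.195, adjusted p = 0.03). For 80% hepatectomy Trp53inp1 alone passed, with -1.18 (SE 0.325, adjusted p = 0.021), when 11% of all genes did (4.52% with a negative sign). The second probe of Trp53inp1 gave -1.60 (SE 0.287, adjusted p = 0.00053) and -1.25 (SE 0.287, adjusted p = 0.0068). The second probe of Sesn1 gave 0.07 (SE 0.244, adjusted p = 0.89), so the Sesn1 interaction was seen on 1 of its 2 passing probes. After hepatectomy the brightest Trp53inp1 probe did not pass between the diets (-0.21, adjusted p = 0.52 at 70%, and -0.37, adjusted p = 0.27 at 80%). The second probe was lower in obese than lean liver at 70%, with no overlap (-0.53, SE 0.203, adjusted p = 0.049), and did not pass at 80% (-0.19, adjusted p = 0.58). By the brightest probe obese sham stood 0.81 above lean sham. The obese sham arrays enter both the diet comparison and the interaction, which therefore share that difference. Beside these values, 2 of 8 Kupffer cell and 4 of 9 stellate cell markers had a negative interaction with 70% hepatectomy, and 3 of 4 neutrophil markers had a positive one with 80%, and their part was not tested. At 70% the Trp53inp1 interaction was lost without lean sham array 2, lean 70% array 2 or 4, obese sham array 3 or obese 70% array 2 (adjusted p up to 0.071). That of Sesn1 was lost without lean sham array 3 or 4, lean 70% array 1 or 3 or obese 70% array 1 or 2 (adjusted p up to 0.066). The interaction of Trp53inp1 at 70% was lost with slide as a random block too, and that at 80% with slide as a fixed term (-0.76, SE 0.325, adjusted p = 0.22). For the difference of the interactions between the resection sizes, 0 of the 9 genes passed by limma, 1 had an unadjusted p under 0.05, and 12.4% of all genes passed. The second, dimmer Phlda3 probe, detected on 10 arrays and read near background, did pass there (-0.56, SE 0.179, adjusted p = 0.039). The brightest Phlda3 probe gave -0.04 (adjusted p = 0.91).

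By group mean, Trp53inp1 was ordered lean 80% (10.46 ± 0.73, SD), lean 70% (10.26 ± 0.24), obese 80% (10.09 ± 0.20), obese 70% (10.05 ± 0.34), obese sham (9.13 ± 0.09) and lean sham (8.31 ± 0.08), and neighbours among the 4 hepatectomy groups overlapped. Ccng1 was highest in obese sham (8.42 ± 0.16) and lowest in lean 80% (6.95 ± 0.21), each apart from its neighbour, and the 4 groups between overlapped in turn. The Bbc3 sham groups (7.55 ± 0.26 lean, 7.14 ± 0.25 obese) overlapped with each other, and the 4 hepatectomy groups did so in turn. Genes most like a member were found by the smallest root mean square difference of the 6 centred group means. For Trp53inp1 these were Ell2 (0.142) and Slc4a4 (0.159), for Bbc3 Dhx58 (0.054) and Klf1 (0.077), for Ccng1 Adcy6 (0.097) and Fam210b (0.103), and for Sesn1 Sptb (0.068) and Wdr95 (0.069).

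Of 36 other direct p53 targets, 26 were measured. After 70% and 80% hepatectomy 10 rose and 6 fell, then 11 rose and 8 fell, in lean mice. In obese mice 10 rose and 5 fell after either resection. The 26 include Btg2, which was undetected in sham, so its place among them is not independent of the detection filter. Of all genes, 21.4% and 23.9% rose in lean mice and 22.2% and 24.1% in obese mice. In the same order 26.2%, 31%, 24.6% and 28.7% of all genes fell, and these shares stand beside the lists below as well. The medians of the 26 genes were 0.30, 0.30, 0.21 and 0.08, when those of all genes were -0.03, -0.06, -0.02 and -0.04. Cdkn1a, the p21 inhibitor of cyclin-dependent kinases, rose by 4.42 and 4.88 in lean and by 1.93 and 1.89 in obese mice, and it was 2.93 higher in obese than lean sham liver (adjusted p = 1.7e-07). The same sham arrays enter its interactions with diet, which therefore share that sham difference, as for Trp53inp1. Those interactions were -2.49 (adjusted p = 0.00023) and -2.98 (adjusted p = 5.5e-05), the sign seen for Trp53inp1. The 26 genes did not share that sign at 70%, where 4 had a positive and 3 a negative interaction. At 80% the interaction was positive for 2 and negative for 5. Of all genes, 18.1% passed at 70% and 11% at 80%. The kinase Plk3 (2.24, 2.43, 1.86 and 1.96) and Apaf1 (1.29, 1.75, 1.36 and 1.55), the scaffold of the apoptosome, rose in all 4 comparisons. Gadd45a, a growth arrest gene, rose by 0.68, 1.71, 1.92 and 2.17, and it was 1.01 lower on the log2 scale in obese than lean sham liver (-1.01, adjusted p = 0.0037). Trp53inp2, the paralog of Trp53inp1, is counted in this list, but its activation by p53 was not tested here. It fell in all 4 (-1.26, -1.32, -1.60 and -2.19), opposite to Trp53inp1. Triap1, an inhibitor of apoptosis, fell in all 4 as well (-0.88, -0.75, -0.31 and -0.70).

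**Figure D4:**
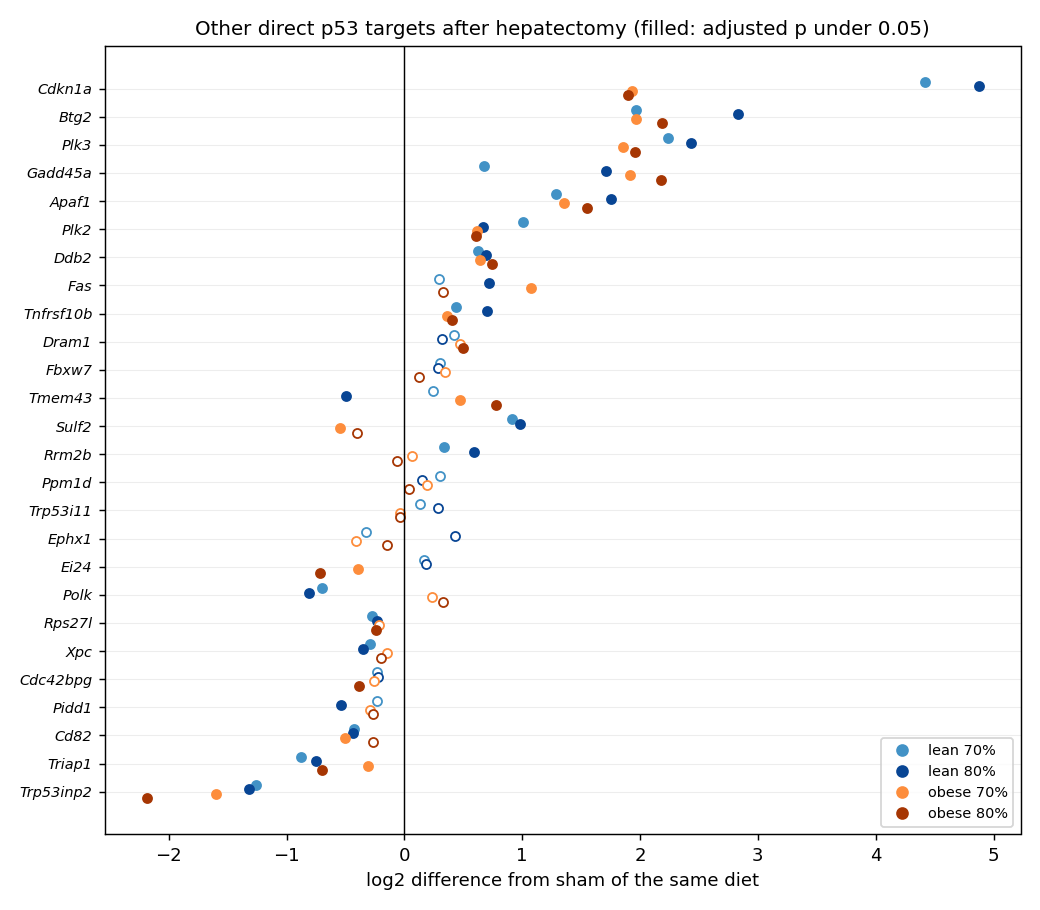
Log2 difference from the sham group of the same diet for 26 other direct p53 targets after 70% or 80% hepatectomy in lean (blue) and obese (orange) mice. Each row is a gene, points are differences of means of 4 arrays, and filled points have an adjusted p under 0.05. Cdkn1a lies farthest right with lean values of 4.42 and 4.88. Trp53inp2, a paralog of Trp53inp1 that the list holds, lies farthest left. Btg2 was undetected in sham, so its points depend on the detection floor.

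Of 24 upstream regulators of p53, 16 were measured, and 1, 1, 2 and 4 rose while 5, 5, 5 and 4 fell after lean 70%, lean 80%, obese 70% and obese 80% hepatectomy. Atm, the kinase that signals DNA breaks to p53, fell in all 4 (-1.08, -1.23, -0.85 and -0.94), as did the p53 kinase Hipk2 (-0.54, -0.73, -0.80 and -0.44). Rchy1, a ubiquitin ligase for p53, rose in all 4 (0.46, 0.53, 0.44 and 0.67). Mdm4, the partner of Mdm2, passed in none (0.07, -0.06, -0.15 and 0.02). Of 18 genes of the BCL2 family, which Bbc3 acts through, 14 were measured, and 5, 4, 4 and 6 rose while 5, 6, 3 and 2 fell. Bcl2l1, whose protein BCL-XL is bound by PUMA, rose by 2.21, 2.74, 2.71 and 2.79, while Bbc3 fell.

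Of 16 ATF4 and CHOP targets, genes of the integrated stress response, 14 were measured, and 10, 11, 10 and 10 rose while 1, 0, 0 and 0 fell. Of 15 FOXO targets, a list that holds Trp53inp1, 14 were measured, and 9, 9, 6 and 6 rose while 2, 3, 5 and 4 fell. Of 8 paralogs of the p53 target genes, 7 were measured, and 2, 1, 0 and 2 rose while 1, 2, 1 and 1 fell. Ccng2, the paralog of Ccng1, was 1.34 higher in obese than lean sham liver (adjusted p = 0.00011), where Ccng1 was 0.57 higher.

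Markers of other cell types moved as well, and in bulk tissue fewer cells of a type and less RNA per cell cannot be told apart. Of 10 neutrophil markers 4 were measured, and 3, 4, 4 and 4 rose. Cxcr2 was undetected in both sham groups and passed the detection filter through hepatectomy arrays alone, so its place in these counts is not independent of that filter. S100a9 was undetected in obese sham. The 4 markers had a mean level per array of 4.81 to 5.47 in lean sham, 6.96 to 7.88 in lean 70% and 6.89 to 7.91 in lean 80%. Sham values of either diet lay near the detection floor of 4.73 to 4.92. The obese values were 4.65 to 4.92 after sham surgery, 6.82 to 7.50 after 70% and 8.0 to 8.48 after 80% hepatectomy. The 9 measured stellate cell markers had means of 6.35 to 6.60 in lean sham, 7.05 to 7.77 in lean 70% and 7.03 to 7.18 in lean 80%. Their obese means were 6.51 to 6.79 after sham surgery, 6.96 to 7.22 after 70% and 6.86 to 7.52 after 80% hepatectomy. Among the stellate cell markers 7, 5, 3 and 3 rose. Pdgfrb was undetected in both sham groups and passed the filter through hepatectomy arrays alone. Col1a2 was undetected in lean sham and Col1a1 in obese sham. The 9 hepatocyte markers had means of 12.51 to 12.59 in lean sham, 12.75 to 12.88 in lean 70% and 12.83 to 13.03 in lean 80%. Their means were 12.55 to 12.68 in obese sham, 12.69 to 12.73 in obese 70% and 12.64 to 12.88 in obese 80%, where the last overlaps sham. Of these markers 4, 3, 1 and 2 rose and 4, 0, 0 and 2 fell. The part of these cell types in the changes of the p53 targets was not tested.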

How the data were processed

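RNA of 24 livers was measured. Per the labels, the cRNA was biotinylated for Illumina arrays. The deposited table holds linear intensity values per probe, not normalized by the authors (columns are array positions, per the file headers), with a deposited detection score that rises from 0 to 1 with brightness. The detection p was taken as 1 minus that score. The deposited log2 values of the authors' matrix equal quantile-normalized log2 intensities centred on probe medians, with no background step (largest difference 0.000847), and served as an alternative. The scanner software is not given in the sources.

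Intensities were background-corrected with normexp (limma 3.58.1, R 4.3.3, background from the detection p, offset 16), quantile-normalized and log2-transformed. A probe passed with a detection p under 0.05 on at least 4 arrays. The brightest passing probe stood for its gene, which left 10765 genes. Symbols come from the platform annotation, updated through RefSeq (34807 of 34885 probes with 1 gene matched by Entrez ID). Arrays detected 15316 to 17463 probes, and their number limits the precision. One limma model with 6 group means (18 residual degrees of freedom, two-sided moderated tests, 12 comparisons) was fitted, with Benjamini-Hochberg adjustment over all genes. The labels number replicates without saying that each is a separate animal, so p-values measure the spread between these arrays. The p53 target genes and the other lists were chosen with earlier results of these data known. Other lists are described by counts, medians and changed genes with large differences. Replicate numbers do not pair arrays of different groups: correlations of deviations between same-numbered arrays averaged 0.006 (-0.208 to 0.183). The fit was tested on simulated data. Values within a slide were added after seeing the data.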

Additional observations from a re-analysis of the deposited data

Results flagged for a closer look

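Perp in lean 80% array 4 read 4.92, apart from the other 3 arrays of that group at 5.19 to 5.24, with a gap of 0.836 of the group's range. Of the 54 groups of 4 arrays examined in this way, 1 stood out, and about 1 in 20 would by chance. The change after hepatectomy differed between the diets for Trp53inp1 at 70% (interaction -1.02, adjusted p = 0.031) and at 80% (-1.18, adjusted p = 0.021), and for Sesn1 at 70% (-0.62, adjusted p = 0.03), by the interaction terms of the limma fit. The other Sesn1 probe did not pass (0.07, adjusted p = 0.89).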

How the results depend on the processing

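Of 36 changes of p53 target genes that passed, 36 kept their sign and 19 kept their call under all alternative settings run and with any single array left out. The count of genes past the threshold moved as follows, though not by more than 1.5 times in every case. The interaction with 70% hepatectomy (2 genes) fell to 0 under upper-quartile scaling and with slide as a random block, and to 1 without a detection filter or with the mean of a gene's probes. Obese against lean at 70% (2) fell to 1 with cyclic loess, slide as a random block or only the groups compared. The count for 80% against 70% in lean mice (2) fell to 1 with the mean of probes, slide as a random block or only the groups compared. Obese against lean at 80% (2) fell to 1 with slide as a random block, slide as a fixed term or only the groups compared. The lean 70% count against sham (7) was 5 or 6 under 9 settings, among them 5 with an offset of 50 or upper-quartile scaling. With slide as a fixed term it fell to 1 and the interaction with 80% (1) to 0. Array weights raised obese 70% against sham (4) to 7. With 1 array left out, the counts ran from 0 to 2 for the interaction with 70%, 1 to 2 for 80% against 70% in lean mice, 1 to 3 and 0 to 3 for obese against lean at 70% and 80%, 2 to 4 for obese against lean sham, and 0 to 1 for the difference of the interactions. The cause of these moves was not tested. The numbers of the replicate block left the lean 70% count at 7 and every other count as it was, and pairing is not given by the design. A fixed slide term could not be fitted where slide and group cannot be told apart, and most of the 19 kept calls lie in such comparisons. Those calls were therefore not put to that setting. In the comparisons where it could be fitted, 10 calls were lost and 1 was gained. Under upper-quartile scaling the genes called positive were 66.1% of those called in the interaction with 70% (54.1% as reported), 35.8% in obese 80% against 70% (54.8%) and 35.6% in the difference of the interactions (56.3%).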
